A study of Mus musculus with 14 samples.

Results

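This account describes the transcriptome of 5 CT26 tumors that responded to anti-PD-1 against 5 CT26 tumors of mice given control IgG, 10 of the 14 tumors of the series. The 10 tumors were taken by their labels, treatment for the control group and response for the treated group, and every gene of the deposited tables was included. CT26 is a colon carcinoma line of the Balb/c strain, and the cells carried ClonTracer barcodes that mark clones of the inoculum. All tumors, control and treated alike, came from 250000 barcoded cells placed in the flanks of female Balb/c mice aged 6 to 8 weeks. Control mice received the IgG clone 2A3 and treated mice the anti-PD-1 clone 1A12, at 200 μg per dose every 3 days for 5 doses from day 7, and tumors were taken 3 days after the final dose. Both flanks of a mouse could be used, so that the 5 control tumors (14L, 14R, 16R, 17R and 20R) came from 4 mice and the 5 responders (24L, 26R, 30L, 30R and 35L) from 4 other mice. The number is the mouse and the letter the flank. A responder was a treated tumor that was small at harvest relative to the controls, so the responder group consists of residual small tumors, and tumor size, treatment and response cannot be told apart in this comparison. The other 4 treated tumors, the non-responders (29L, 32R, 33L and 33R, from 3 mice), stayed in the statistical fit and are given beside the responders where their values bear on a result.

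PD-1 is an inhibitory receptor of activated T cells, and its ligands PD-L1 and PD-L2 are displayed by tumor cells and by myeloid cells. Blocking the receptor releases T cells that then produce interferon gamma, and interferon gamma acts through the transcription factors IRF1 and CIITA on antigen presentation genes in the cells around them. The RNA was extracted from whole tumors, so cancer cells, leukocytes, stroma and blood contributed to each library, and fewer cells of a type cannot be told apart from less RNA per cell.

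Between 33237744 and 48481461 reads or read pairs were assigned to genes per tumor, which puts the limit allowed by a count of 0 at no more than 9.03e-06% of a library. The totals of responders and control tumors differed by -507892 on average (exact permutation test, two-sided, p = 0.857), and the estimated mean fragment length lay between 269.5 and 277.0 bases in responders and between 268.7 and 277.7 bases in control tumors (exact permutation test, two-sided, p = 0.516). The dissected tissue was less even. Epidermis genes had a mean log2 CPM (CPM, counts scaled to the library total) of -1.45 in control tumor 14R and -0.88 in responder 30L, 0.86 in responder 26R, and 3.04 to 5.06 in the other control and responder tumors, while skeletal muscle genes were highest in 14R at 6.18 and lowest in 30L at 0.64. None of the 15 muscle and 15 epidermis genes was called between the groups. Of the colon epithelial markers, 11 of 15 passed the filter on low counts, and Cdx1, Vil1, Muc2 and Cldn7 did not, so these defining markers of colon epithelium were too low to test in tumors of a colon line. Cdh17, an intestinal cadherin, rose by 1.28 on the log2 scale, with 2.72 to 5.55 CPM in control tumors and 7.79 to 12.4 CPM in responders, and Cdx2, an intestinal transcription factor, fell by 1.97 on the log2 scale from a control mean of 0.57 ± 0.097 CPM (SD, n = 5). Nothing in the labels says how the tumors of a group were ordered or batched.

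The first question was how much of the transcriptome differed. Of 16287 genes tested, 2147 passed an adjusted p of 0.05 in edgeR's quasi-likelihood test with Benjamini-Hochberg adjustment over all genes tested, which is 13.2%. All adjusted p-values given here come from that fit over the 14 tumors. In responders 1284 genes (7.88% of those tested) were higher and 863 (5.3%) were lower, and 4546 genes had an unadjusted p under 0.05. The groups did not overlap, meaning that all 5 responders lay above or all 5 below all 5 control tumors in log2 CPM, for 2453 genes (15.1%), and 1652 genes were both called and free of overlap. Increases were larger than decreases. The median absolute log2 fold change was 0.76 among the genes called higher and 0.46 among those called lower, and beyond an absolute log2 fold change of 1 there were 400 higher genes and only 117 lower ones. The median over all genes tested was -0.01. The number of calls depended on single tumors. It was 1190 without control tumor 20R, 1192 without responder 24L, 1387 without responder 30R and 3385 without non-responder 33R, which is in neither group but shares the fit. Genes called higher numbered 751 without 20R and 748 without 24L, and genes called lower 572 without 17R, 439 without 20R, 444 without 24L, 497 without 30R and 1538 without 33R. On deposited TPM values (abundances scaled by transcript length and library, with a pseudocount of 1 before the logarithm) the split moved to 1522 genes higher and 305 lower, 83.3% higher against 59.8% on counts, and the median of all genes moved to 0.09.

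The share of the messenger pool moved in the same direction as the calls that define it. Genes called higher held 1.94 to 2.62% of all TPM in control tumors and 3.53 to 5.21% in responders. The genes called lower held 16.6 to 18.2% in control tumors and 12.6 to 14.5% in responders. In non-responders the shares were 1.85 to 2.63% and 15.9 to 17.4%. Genes of middling abundance were called higher most often. With a mean log2 CPM of 2 to 4, 13.2% of 2643 genes were called higher, and with a mean over 6 the share was 4.93% of 3553 genes, against 7.26% called lower.

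The largest increases among abundant genes with no overlap included macrophage, immunoglobulin and matrix genes. Retnla, a secreted resistin-like protein of alternatively activated macrophages and of stroma (chr16:48842551-48844461, mm10, as are all coordinates here), measured 1.53, 2.09, 0.631, 2.41 and 0.274 CPM in the 5 control tumors, in the order 14L, 14R, 16R, 17R and 20R that is kept throughout. In the responders it measured 44.1, 25.7, 59.6, 65.2 and 14.7 CPM, in the order 24L, 26R, 30L, 30R and 35L. Every responder lay above every control tumor (log2 fold change 4.91 ± 0.54 (SE), edgeR adjusted p = 0.000323). The non-responders, in the order 29L, 32R, 33L and 33R, had 17.4, 8.27, 18.7 and 17.1 CPM, and the difference between responders and non-responders did not pass (1.45 ± 0.48 on the log2 scale, edgeR adjusted p = 0.0702). Every non-responder lay above every control tumor as well, and 32R was the lowest of the 4.

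Also of that kind were Ms4a8a, a membrane-spanning four-domain protein reported in macrophages, and Timd4, a phosphatidylserine receptor of resident macrophages. Ms4a8a (chr19:11067471-11081102) had the smallest p among the genes called higher. It measured 2.84, 3.61, 3.05, 3.71 and 2.22 CPM in control tumors and 20.5, 12.2, 16.6, 16 and 11.6 CPM in responders (log2 fold change 2.31 ± 0.19 (SE), edgeR adjusted p = 5.95e-05). The non-responders were intermediate at 6.27 to 8.92 CPM, and the responders exceeded them by 1.09 ± 0.19 (SE) on the log2 scale (edgeR adjusted p = 0.00751). Timd4 rose (0.788 to 2.82 CPM in control tumors and 3.34 to 13 CPM in responders).

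Immunoglobulin transcripts made up the next largest folds. Ighg1, the constant region of IgG1 (chr12:113325240-113330523), measured 2.84, 4.57, 0.368, 4.53 and 0.594 CPM in control tumors against 66.8, 50.6, 24.9, 9.65 and 17.3 CPM in responders (log2 fold change 3.70 ± 0.69 (SE), edgeR adjusted p = 0.00384). Igkc, the constant region of the kappa light chain (chr6:70726435-70726966), measured 3.1, 3.71, 0.578, 4.7 and 0.891 and 43.8, 42.9, 26.1, 10.01 and 13 CPM (log2 fold change 3.38 ± 0.59 (SE), edgeR adjusted p = 0.00267). Neither overlapped between the groups, and 24L was the highest responder and 30R the lowest for both. Non-responders had 0.741 to 3.34 CPM of Ighg1 and 0.95 to 3.79 CPM of Igkc.

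Matrix and stromal genes followed. C1qtnf3, a C1q-related adipokine, rose by 3.02, Ccn3, a matricellular protein, by 2.51, and Pdgfrl, a PDGF receptor-like protein, by 2.20 on the log2 scale. These 3 genes were not called between responders and non-responders (log2 differences 0.93 ± 0.60, 1.13 ± 0.44 and 0.73 ± 0.42, edgeR adjusted p = 0.332, 0.11 and 0.274). Npy4r, a receptor of pancreatic polypeptide, rose by 2.88 and was called against non-responders too (log2 difference 1.96 ± 0.46). Dnase1l3, a secreted DNase of myeloid cells, rose by 2.21 and Apol6, an apolipoprotein L, by 2.12. Ubd encodes a ubiquitin-like modifier inducible by interferon gamma and measured 2.55 to 9.94 CPM in control tumors and 12.8 to 37.9 CPM in responders. Ido1, the tryptophan-degrading enzyme, measured 3.52, 3.31, 1.47, 2.24 and 3.63 CPM in control tumors and 25.6, 8.69, 18.7, 15.2 and 8.15 CPM in responders (log2 fold change 2.43 ± 0.37 (SE), edgeR adjusted p = 0.00144). No control tumor reached the lowest responder for either of these.

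Small p-values at more modest folds picked out a further set. Ly6c1, a surface protein of endothelium and some leukocytes, rose by 2.08 ± 0.21 (SE) on the log2 scale (39.2 to 69.1 CPM in control tumors and 169 to 334 CPM in responders). Log2 increases of the adaptor gene Shc2, the kinase gene Camk2b and the Cdc42 effector Cdc42ep2 were 1.58, 1.18 and 0.77. Gstm2, a glutathione transferase, rose by 0.66, and Aqp8, a water channel, by 2.07. Lyz1 rose (4.3 to 5.4 CPM in control tumors and 11.5 to 24.8 CPM in responders) and its value is uncertain, since it shares most of its sequence with Lyz2 and reads could have been split between them.

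**Figure D1:**
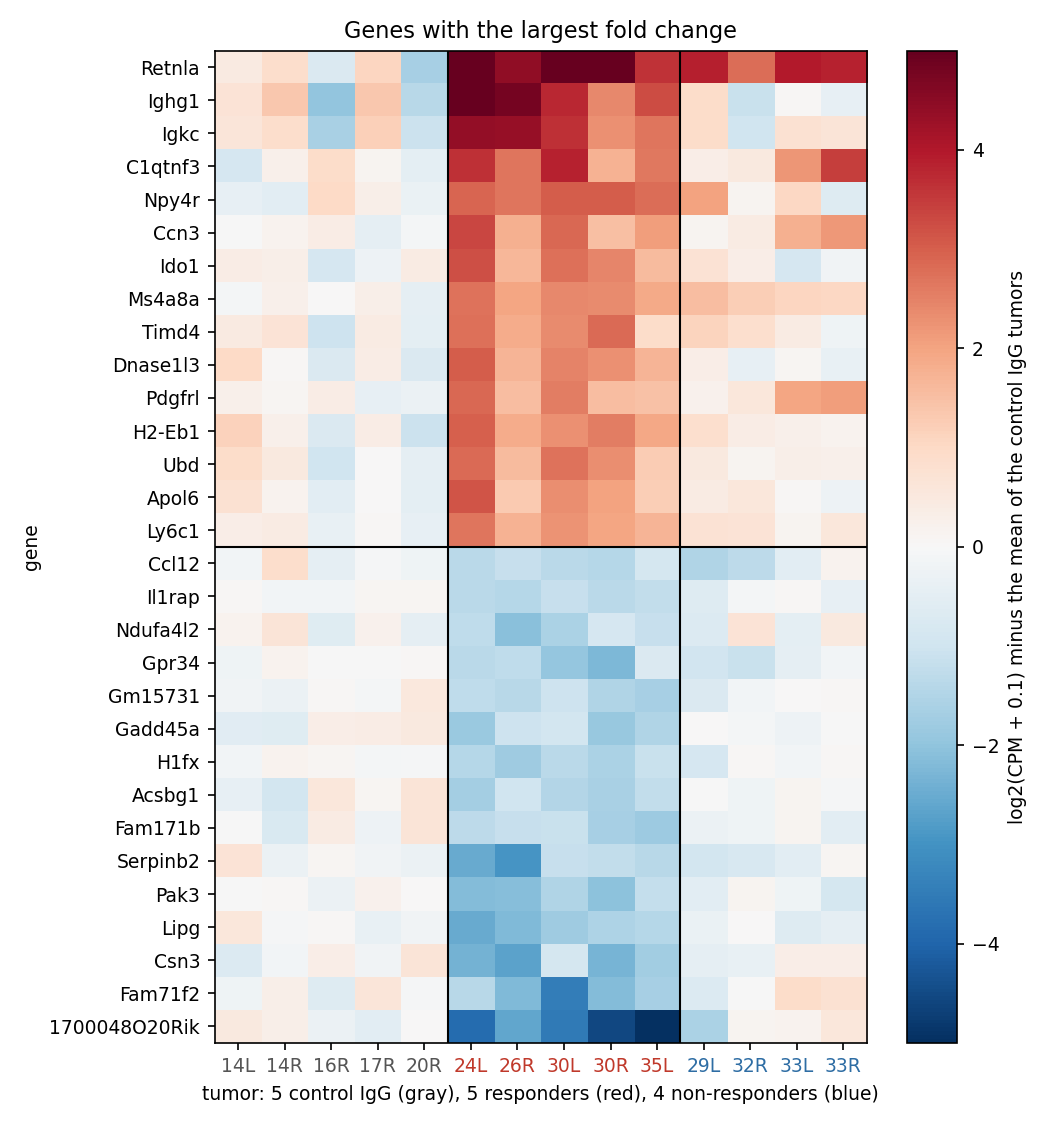
A heat map of the genes with the largest log2 fold changes that passed the test without overlap, 15 higher and 15 lower in responders, one row per gene and one column per tumor, colored by log2 CPM (with a pseudocount of 0.1) relative to the mean of the 5 control tumors. The 5 responder columns stand apart from the 5 control columns in every row, as the choice of genes requires.

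MHC class II presentation was the one of the 49 gene lists in which every tested gene was called. All 12 tested genes of 13 rose, against 7.88% of all genes tested, with a median log2 fold change of 1.59 against -0.01 over all genes. The mean log2 CPM of the list lay between 3.53 and 4.88 in control tumors and between 5.29 and 6.20 in responders. H2-Eb1, a class II beta chain (chr17:34305867-34316674), measured 110.2, 59.1, 30.1, 64.1 and 23.8 CPM in control tumors and 399, 177, 239, 290.0 and 189 CPM in responders (log2 fold change 2.17 ± 0.36 (SE), edgeR adjusted p = 0.00216). The groups did not overlap and 24L was the highest responder. H2-Ab1, H2-Aa and the invariant chain gene Cd74 rose by 2.02, 1.98 and 1.92 on the log2 scale. Ciita, the transactivator on which class II transcription depends, measured 12.5, 4.8, 3.05, 6.87 and 3.52 CPM in control tumors and 40.4, 15.6, 27.7, 29.4 and 16 CPM in responders (log2 fold change 2.08 ± 0.38 (SE), edgeR adjusted p = 0.00336). Ctss, the protease that trims the invariant chain, rose less, by 0.58 ± 0.11 (SE). Against non-responders the log2 difference was 1.96 ± 0.39 for H2-Eb1 and 2.15 ± 0.41 for Ciita (edgeR adjusted p = 0.0119 and 0.0102), and it did not pass for Ctss (0.30 ± 0.12, edgeR adjusted p = 0.119).

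Class II promoters are known for an inverted CCAAT box, read ATTGG on the coding strand, next to the X box to which the RFX and CREB factors bind. The 100 bases before the start of 2 of the genes are shown because these genes had among the largest class II folds. Capitals mark ATTGG or its reverse complement (RefSeq, GRCm38.p6).
H2-Aa (chr17:34287824-34287923, - strand): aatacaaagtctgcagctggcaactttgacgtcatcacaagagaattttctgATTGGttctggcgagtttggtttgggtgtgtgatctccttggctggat
H2-Eb1 (chr17:34305767-34305866, + strand): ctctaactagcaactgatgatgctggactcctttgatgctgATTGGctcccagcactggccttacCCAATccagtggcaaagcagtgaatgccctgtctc
Windows ran from 250 bases before to 50 bases after the start. In them ATTGG on either strand was present in 7 of 9 class II genes (77.8%). It was present in 42.5% of the 11608 tested genes for which RefSeq gave a window. The share was 40.1% of genes called higher and 42.7% of those called lower. Other lists had high shares too, with 12 of 17 class I genes (70.6%) and 10 of 16 interferon gamma genes (62.5%).

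Dendritic cell genes rose alongside. Of 16 tested, 11 were higher and none lower, with a median log2 fold change of 0.92. Xcr1, the chemokine receptor of cross-presenting dendritic cells, measured 2.13, 1.75, 0.92, 1.91 and 1.03 CPM in control tumors and 8.33, 4.52, 6.05, 5.76 and 5.36 CPM in responders (log2 fold change 1.96 ± 0.24 (SE), edgeR adjusted p = 0.000483), with no overlap. Clec9a, a receptor for dead cells on the same subset, measured 1.19, 1.09, 0.999, 1.28 and 0.777 and 5.11, 2.89, 3.73, 3.79 and 2.57 CPM (log2 fold change 1.76 ± 0.21 (SE), edgeR adjusted p = 0.000483), again with no overlap. Flt3, the growth factor receptor of the lineage, rose by 1.27, Naaa, a lysosomal amidase enriched in these cells, by 0.93 and Itgae, the CD103 integrin chain, by 0.65. The Toll-like receptor genes Tlr11 and Tlr12, which detect protozoan profilin, and Tlr9, the receptor of CpG DNA, were picked on sight of their values, with log2 increases of 1.74, 1.32 and 0.81. Without responder 24L, 9 of the 12 class II genes passed. Without any one of 16R, 20R or 24L 6 dendritic cell genes did, and without 30R 7.

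Genes under interferon gamma control moved together. Of 25 in that list, 19 were higher and none lower, with a median log2 fold change of 0.95. Ifng itself measured 0.682, 0.683, 0.289, 0.434 and 0.229 CPM in control tumors and 2.64, 0.991, 1.77, 1.51 and 1.02 CPM in responders (log2 fold change 1.77 ± 0.35 (SE), edgeR adjusted p = 0.00515). The groups did not overlap, although the counts behind it were low. Gbp2, a guanylate-binding protein that acts on intracellular pathogens (chr3:142620602-142638008), measured 265, 215, 91.9, 198 and 114 CPM in control tumors and 712, 286, 555, 439 and 301 CPM in responders (log2 fold change 1.38 ± 0.30 (SE), edgeR adjusted p = 0.00813). Gbp4, Gbp8 and Gbp10 rose by 1.41, 1.27 and 1.94 on the log2 scale, and counted after their values were seen all 11 tested Gbp genes were called higher, although several of them are close copies between which reads could have been split. The immunity-related GTPase Igtp rose by 1.12 and the T cell chemokine Cxcl9 by 1.26. Ifngr1, the receptor's ligand-binding chain, rose by 0.40 ± 0.06 (SE) with little spread. Irf1 rose by 0.76. The count of 19 was 8 without responder 24L or without control tumor 20R, and 12 without 16R, 17R or 30L.

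Interferon response genes carry either ISRE-type repeats of GAAA, read by IRF factors, or the palindromic GAS element TTCNNNGAA. One gene of each GTPase family and Irf1 are shown, 100 bases each, with the match in capitals (RefSeq, GRCm38.p6). The windows of Gbp2 and Igtp end just before the start and hold GAAANNGAAA on either strand, and that of Irf1 lies further upstream and holds TTCNNNGAA.
Gbp2 (chr3:142620563-142620662, + strand): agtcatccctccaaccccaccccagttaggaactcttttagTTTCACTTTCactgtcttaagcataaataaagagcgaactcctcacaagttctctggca
Igtp (chr11:58199456-58199555, + strand): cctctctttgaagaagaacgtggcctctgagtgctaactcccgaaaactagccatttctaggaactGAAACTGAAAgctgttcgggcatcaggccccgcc
Irf1 (chr11:53769874-53769973, + strand): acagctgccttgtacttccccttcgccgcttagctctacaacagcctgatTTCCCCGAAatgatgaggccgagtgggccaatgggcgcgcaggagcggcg
GAAANNGAAA was present in 9 of the 16 list genes with a RefSeq window (56.2%), in 7.06% of all genes called higher, in 3.34% of those called lower and in 3.92% of genes tested. TTCNNNGAA was present in 6 of the 16 (37.5%) and in 8.39% of genes tested. The GAS palindrome reads the same on both strands.

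Class I presentation and the type I interferon response changed less. Counts called higher in these lists stand beside 7.88% of all genes tested. Of 20 class I genes 8 rose and none fell, with a median log2 fold change of 0.31. The peptide-loading genes Tapbpl and Tap1 rose by 0.79 and 0.66, the immunoproteasome gene Psmb10 by 0.74 and the class I transactivator Nlrc5 by 0.72. Of the class I molecules in the list H2-T23 rose, by 0.71, and the others did not pass. H2-K1 measured 368 to 509 CPM in control tumors and 416 to 688 CPM in responders, and B2m, the shared light chain, 1740 to 2556 and 2095 to 2648 CPM, with overlap for both. Over the 13 tested Q, T and M genes of the H2 family, which include 4 of this list, H2-T23 and H2-T24 (0.87) rose and none fell, with a median log2 fold change of 0.22. Members of the H2 family share sequence, so reads could have been assigned among them. In the type I interferon list 3 of 23 genes rose, namely the oligoadenylate synthetases Oas3 (1.34) and Oas2 (0.97) and the transducer Stat2 (0.87), while Irf7 did not pass (log2 fold change 0.81 ± 0.30 (SE), edgeR adjusted p = 0.0881). The median of that list was 0.54. Without control tumor 14R 11 of its genes passed, without 33R 5 and without 20R or 24L 1. In the class I list 2 passed without 20R or 24L and 3 without 16R, 17R, 30L or 30R.

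T cell genes rose in most cases. Of 17 genes of the receptor complex and its coreceptors, 15 rose and none fell, with a median log2 fold change of 0.999. Cd2, an adhesion receptor of T and NK cells, measured 1.87, 2.01, 0.972, 1.47 and 0.914 CPM in control tumors and 5.67, 3.09, 5.36, 4.09 and 4.01 CPM in responders (log2 fold change 1.62 ± 0.24 (SE), edgeR adjusted p = 0.00115). Cd8a (chr6:71373427-71379173) measured 16.3, 11.3, 6.2, 10.7 and 9.28 CPM in control tumors and 27.1, 14, 15.3, 21.2 and 20.1 CPM in responders (log2 fold change 0.86 ± 0.23 (SE), edgeR adjusted p = 0.023), and Cd4 2.27, 1.43, 1.47, 2.48 and 1.33 and 4.76, 3.21, 3.54, 3.65 and 3.51 CPM (log2 fold change 1.06 ± 0.21 (SE), edgeR adjusted p = 0.00515). Cd4 did not overlap between the groups whereas Cd8a did. The signaling chain gene Cd3e rose by 0.79, the kinase gene Lck by 0.90, and Tcf7, a transcription factor of naive and stem-like T cells, by 0.87. The non-responders had 7.25 to 10.1 CPM of Cd8a and 1.2 to 1.87 CPM of Cd4, and the responders exceeded them by 1.19 ± 0.25 and 1.40 ± 0.23 on the log2 scale (edgeR adjusted p = 0.0137 and 0.00628). Gimap4, Gimap3 and Gimap8, GTPases of lymphocyte survival picked on sight of their values, rose by 0.92, 1.42 and 0.94, and all 8 tested Gimap genes were called higher. Of the T cell receptor list 9 genes passed without 20R or without 24L.

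Cytotoxic genes split. Of 21 tested, 11 rose, with a list median of 0.93 on the log2 scale. Ccl5, a T cell and NK cell chemokine (chr11:83525778-83530518), measured 6.42, 8.07, 3.44, 4.46 and 3.38 CPM in control tumors and 27.7, 14.6, 19.8, 15.6 and 19.8 CPM in responders (log2 fold change 1.92 ± 0.24 (SE), edgeR adjusted p = 0.000604). Gzma and Gzmk, granzymes with tryptic activity, rose by 1.33 and 1.53, Ncr1, an activating NK receptor, by 1.12 and the granule gene Nkg7 by 1.16. Gzmb, the main apoptosis-inducing granzyme, did not pass, with 54.5, 80.3, 44.9, 66.7 and 55.5 CPM in control tumors and 131, 59.7, 145, 62.8 and 61.1 CPM in responders (log2 fold change 0.60 ± 0.30 (SE), edgeR adjusted p = 0.205). The ranges of Gzmb overlapped. Over the 9 granzyme genes tested, counted after the values were seen, 2 rose and the median log2 fold change was -0.49.

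Of 15 checkpoint and costimulatory receptors 8 rose and none fell. Foxp3, the regulatory T cell factor, measured 0.966, 0.384, 0.394, 0.314 and 0.571 CPM in control tumors and 2.73, 1.11, 1.64, 1.79 and 1.22 CPM in responders (log2 fold change 1.70 ± 0.33 (SE), edgeR adjusted p = 0.00485). Tnfrsf4, which encodes OX40, rose by 0.90, Lag3 by 1.14 and Cd160 by 1.26. Pdcd1, the gene of the antibody's target, did not pass, at 13.3, 9.69, 7.15, 10.1 and 6.58 CPM in control tumors and 18.5, 10.2, 11.1, 15.9 and 14.3 CPM in responders (log2 fold change 0.58 ± 0.21 (SE), edgeR adjusted p = 0.0789). Its transcript level does not report on how much of the protein was blocked. Among 13 checkpoint ligands Cd274 (PD-L1) rose by 0.75, Pdcd1lg2 (PD-L2) by 1.69 and Rgmb, a PD-L2 binding protein, by 0.68, while Pvr, a ligand of TIGIT and CD226, fell by 0.49. Of the receptors 4 passed without 24L or 30R and 5 without 20R or 30L, and of the ligands 1 was called higher without 16R, 20R or 24L.

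Most of the immunoglobulin constant genes tested rose. A minority of the B cell and plasma cell genes did, though a larger share than the 7.88% of all genes tested. Of 14 B cell genes 9 were abundant enough to test, and 4 rose and 1 fell. Pax5, the B cell identity factor, measured 0.824, 0.747, 0.525, 0.603 and 0.548 CPM in control tumors and 4.44, 4.05, 3.41, 3.3 and 2.7 CPM in responders (log2 fold change 2.46 ± 0.31 (SE), edgeR adjusted p = 0.000575). Pou2af1, a coactivator in B cells, rose by 2.40, Cd22 by 0.68 and Ms4a1, the gene of CD20, by 2.49 from a control mean of 0.0651 ± 0.0795 CPM (SD, n = 5). Bank1, a B cell scaffold, fell by 0.57, and Cd79a did not pass (0.338 to 0.754 CPM in control tumors and 0.611 to 1.36 CPM in responders). In the plasma cell list 3 of 8 rose, namely Jchain, the joining chain of IgA and IgM, by 3.03, Mzb1, an immunoglobulin chaperone, by 1.74 and the transcription factor gene Irf4 by 1.42. Of 7 immunoglobulin constant genes tested 5 rose, with a median log2 fold change of 2.87. Besides Ighg1 and Igkc these were Igha (2.87), Ighd (1.68) and Ighm (0.59). Ighg2b did not pass (log2 fold change 2.15 ± 0.96 (SE), edgeR adjusted p = 0.158), and since the IgG constant genes resemble each other their shares are uncertain. Without 20R, 24L, 30L or 30R 2 B cell genes were called higher.

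**Figure D2:**
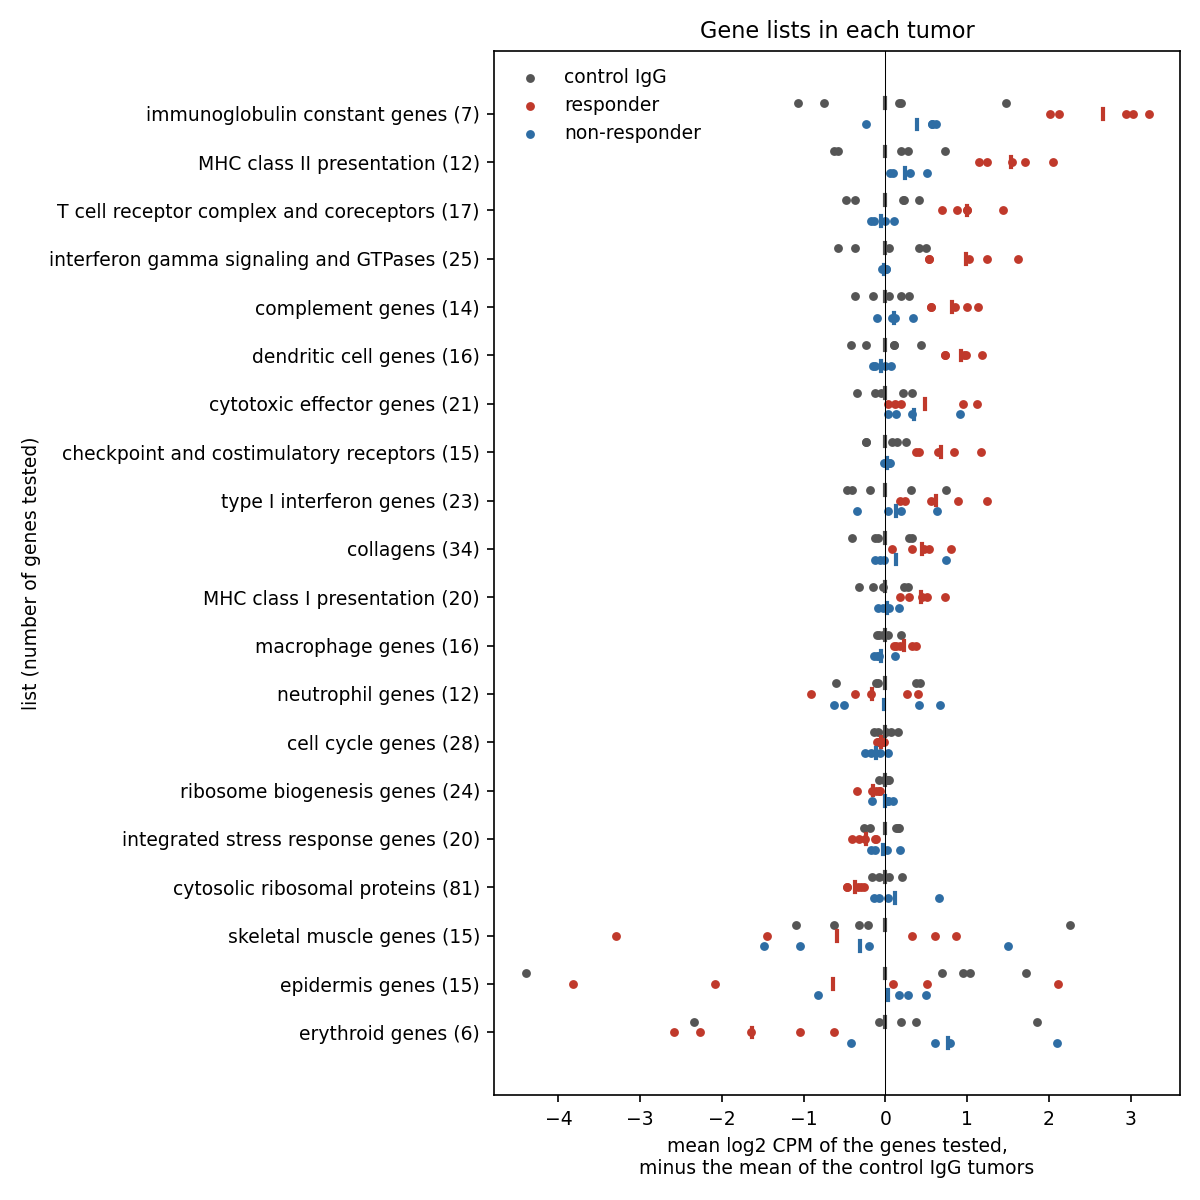
Mean log2 CPM of the genes of selected lists in each tumor, relative to the mean of the 5 control tumors, with one point per tumor, a short line at each group mean, and gray, red and blue for control IgG, responders and non-responders. The responders lie above all control tumors for MHC class II, T cell and dendritic cell genes, and below all of them for cytosolic ribosomal proteins.

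Complement genes formed a further large block. Of 14 tested, 11 rose and none fell, with a median log2 fold change of 0.94. C3, the central component (chr17:57203970-57228136), measured 139.6, 109, 71.5, 78.2 and 43.9 CPM in control tumors and 432, 278, 349, 263 and 226 CPM in responders (log2 fold change 1.81 ± 0.29 (SE), edgeR adjusted p = 0.00189). Cfb, the protease of the alternative pathway, measured 128, 146, 86.9, 116 and 77.3 and 412, 214, 334, 331 and 213 CPM (log2 fold change 1.44 ± 0.20 (SE), edgeR adjusted p = 0.000966). For both genes the groups were apart. C4b rose by 1.54 and the C1 protease genes C1ra and C1s1 by 1.09 and 1.16. Against non-responders the log2 difference of C3 was 1.88 ± 0.32 (edgeR adjusted p = 0.00666).

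Chemokines and interleukins changed in both directions. Of 31 chemokine ligands 7 rose and 1 fell, beside 7.88% higher and 5.3% lower among all genes tested. Cx3cl1, the membrane-bound fractalkine, rose by 1.22, the dendritic cell chemokine Ccl17 by 1.19 and the myeloid chemokine Ccl6 by 0.83. Ccl12, a monocyte attractant, measured 55.2, 112, 43.8, 57.6 and 51.5 CPM in control tumors and 23.5, 26.9, 23.9, 22.5 and 33.1 CPM in responders (log2 fold change -1.30 ± 0.31 (SE), edgeR adjusted p = 0.0139) and was the lone ligand to fall. Of 18 chemokine receptors 6 rose, among them Cxcr3 (1.31) and Cxcr6 (1.11) of effector T cells, while the fractalkine receptor Cx3cr1 (-1.14) and the scavenging receptor Ackr3 (-0.58) fell. Without 14R 11 chemokine ligands were higher and without 20R 4.

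Of 24 interleukins and related cytokines 2 rose and 4 fell, with a median of -0.26 on the log2 scale. The 2 increases were near the 7.88% called higher of all genes tested, and 5.3% of all genes tested were called lower. Il16, a chemoattractant of CD4 cells, rose by 0.75 and Il10, an inhibitory cytokine, by 1.13. The IL-6 family cytokines Lif and Il11 fell by 0.69 and 1.01, the lymphocyte survival factor Il7 by 0.85 and the macrophage growth factor Csf1 by 0.39. Of 37 receptors 13 were higher and 2 lower, and the 2 were near the 5.3% of all genes tested. Il18r1 rose by 1.32, Il12rb1 by 1.19, Il15ra by 1.01, Il27ra by 0.87 and the G-CSF receptor gene Csf3r by 0.94.

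Most genes of the macrophage and neutrophil lists were not called. The counts called higher stand beside 7.88% of all genes tested. Of 16 macrophage genes 2 rose and 1 fell, with a median log2 fold change of 0.22. Ly6c2, a marker of inflammatory monocytes, rose by 1.69 and Adgre1, the gene of F4/80, by 0.35 (113 to 127 CPM in control tumors and 132 to 178 CPM in responders). In the alternatively activated list 4 of 15 rose, Retnla by far the most, then the lectin Clec10a (1.39), the folate receptor Folr2 (0.51) and the IL-4 receptor chain Il4ra (0.37). In the neutrophil list 2 of 12 rose, Csf3r and the decoy receptor Il1r2 (0.79), and S100a8 did not pass (4.48 to 18.3 CPM in control tumors and 1.75 to 7.83 CPM in responders). None of 11 mast cell and eosinophil genes passed. Cybb, the phagocyte NADPH oxidase chain, rose by 0.79 and was picked on sight of its value, as a gene of the X-chromosome segment described below. Of 21 lysosome genes 5 rose, Psap (0.69), Lipa (0.54), Ctsc (0.44), Laptm5 (0.41) and Ctsb (0.37), and none fell. Without 24L 2 lysosome genes passed and without 20R 3.

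Stromal lists held calls in both directions, to be read beside the 7.88% higher and 5.3% lower of all genes tested. Of 17 fibroblast genes 4 rose and 1 fell. Col1a1, a chain of type I collagen (chr11:94936224-94953042), measured 355, 229, 341, 273 and 238 CPM in control tumors and 1020, 404, 642, 526 and 407 CPM in responders (log2 fold change 1.06 ± 0.31 (SE), edgeR adjusted p = 0.0346), and its partner Col1a2 rose by 0.48. Postn, a matrix protein of activated fibroblasts, rose by 1.10 and Pi16, a marker of adventitial fibroblasts, by 1.13. Dcn, the proteoglycan decorin, moved the other way, with 322, 400.4, 218, 281 and 218 CPM in control tumors and 144, 122, 156, 157 and 202 CPM in responders (log2 fold change -0.88 ± 0.18 (SE), edgeR adjusted p = 0.00573). None of the fibroblast genes was called higher without responder 24L or without control tumor 20R, and 2 were without 14R or without 30R.

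Of 34 collagens 5 rose and 1 fell, the 1 being a smaller share than the 5.3% of all genes tested. Col8a2 rose by 3.07 (0.386 to 0.726 CPM in control tumors and 2.27 to 7.19 CPM in responders), and Col11a1 by 2.97 (0.229 to 0.448 CPM in control tumors and 1.22 to 4.9 CPM in responders), while Col8a1 fell by 0.58. Of 19 matrix remodeling genes Timp3, an inhibitor of metalloproteases, rose by 0.87, and Mmp11, Plaur and Plau fell by 0.63, 0.93 and 0.53. The 1 increase was a smaller share than the 7.88% of all genes tested. In the endothelial list 4 of 14 rose, Emcn, Eng, Tie1 and Esam, by 0.40, 0.49, 0.43 and 0.32, and Pecam1 did not pass (log2 fold change 0.30 ± 0.10 (SE), edgeR adjusted p = 0.0714). Of 12 adipocyte genes the lipid droplet gene Plin4 (0.95) and the lipase gene Lipe (0.43) rose, and of 6 nerve genes the myelin gene Mbp (0.58). Of the collagens 2 were higher without 14R, 20R, 24L or 30R and 3 without 17R or 30L, and of the endothelial genes 2 without 14L, 14R, 20R, 24L, 30R or 35L and 7 without 33R. The part that muscle, skin or fat taken with the tumors had in the stromal values was not tested.

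Some hemoglobin transcripts were called lower in responders. Of 6 erythroid genes tested 3 fell. Hbb-bs, a beta globin, measured 41, 252, 1021, 347 and 261 CPM in control tumors, 26.7, 103, 50.7, 77.8 and 141 CPM in responders and 400.1, 1034, 194 and 608 CPM in non-responders (log2 fold change -2.27 ± 0.68 (SE), edgeR adjusted p = 0.0399 against control tumors). The control and responder ranges overlapped through control tumor 14L. Hba-a1 and Hbb-bt fell by 2.10 and 2.19 on the log2 scale, and the globin copies share sequence. No erythroid gene was called without any one of 16R, 17R, 20R, 24L, 26R, 30L or 30R, while 5 erythroid genes were called without 14L. With limma-voom none passed, and 1 did with mouse as a random effect. How much blood each tumor held was not otherwise measured.

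Of the genes that fell, the first by p was Il1rap, the shared accessory chain of the receptors for IL-1 and IL-33 (chr16:26581704-26730117). It measured 36.5, 32.1, 32.4, 37.4 and 37.8 CPM in control tumors and 13.7, 12.9, 15.7, 13.7 and 14.8 CPM in responders (log2 fold change -1.31 ± 0.12 (SE), edgeR adjusted p = 0.000115). No responder reached the lowest control tumor. In non-responders it measured 22.5, 32.7, 36.4 and 26.4 CPM, and the responders lay 1.06 lower on the log2 scale (edgeR adjusted p = 0.00247). Plaur, the urokinase receptor, measured 161, 185, 183, 188 and 186 CPM in control tumors and 89.7, 80.2, 119.9, 85.6 and 98.1 CPM in responders (log2 fold change -0.93 ± 0.10 (SE), edgeR adjusted p = 0.000282). Sox4, a transcription factor of progenitor and tumor cells, measured 57.4, 43.2, 58.4, 64.4 and 48.1 and 26.4, 24.8, 24.8, 24.7 and 30.5 CPM (log2 fold change -1.05 ± 0.11 (SE), edgeR adjusted p = 0.000251). Both were free of overlap, and both were also lower than in non-responders, by 0.79 and 0.93.

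Wwtr1, the Hippo pathway coactivator TAZ, fell by 0.59, Btbd3 by 0.58 and Stau2, an RNA-transport protein, by 0.80 on the log2 scale. Lower by larger folds were Lipg, endothelial lipase (-1.91), Csn3, kappa-casein (-1.96), Pak3, a p21-activated kinase (-1.80), Serpinb2, an inhibitor of plasminogen activators (-1.75), Acsbg1, an acyl-CoA synthetase (-1.51), and Gadd45a, a growth arrest gene (-1.48). Gpr34, a lysophospholipid receptor of macrophages and microglia, fell by 1.44, the linker histone gene H1fx by 1.48, and Ndufa4l2, a mitochondrial protein induced in hypoxia, by 1.42. Fam71f2, Fam171b and Gm15731 fell by 2.21, 1.51 and 1.46, and at lower abundance the adaptor gene Ap3b2 fell by 2.63 and Wdr31 (1.56 to 2.1 CPM in control tumors and 0.48 to 0.717 CPM in responders). Another 6 genes were picked on sight of their values. The EGF receptor ligands Ereg and Hbegf fell by 1.13 and 0.87, the AP-1 factor Fosl1 by 0.74, the prostaglandin synthase Ptgs2 by 1.12, the ERK phosphatase Dusp5 by 0.62 and the cytokine Clcf1 by 0.65. Ereg measured 142, 162, 160.1, 174 and 142 CPM in control tumors and 55.4, 70.1, 82.5, 51 and 98.6 CPM in responders, with no overlap.

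Integrated stress response and ribosome biogenesis genes leaned lower, with larger shares called lower than the 5.3% of all genes tested. Of 20 integrated stress response genes 5 fell and none rose, with a median log2 fold change of -0.22. Ddit3, the factor CHOP, measured 43.5, 47.9, 81, 79.6 and 91.2 CPM in control tumors and 30.6, 34.4, 41, 24.2 and 32 CPM in responders (log2 fold change -1.08 ± 0.20 (SE), edgeR adjusted p = 0.00412), without overlap. Chac1, a glutathione-degrading enzyme, fell by 0.94, Nupr1 by 0.70, Trib3 by 0.72 and Mthfd2 by 0.41, and Atf4, the factor upstream of them, did not pass (log2 fold change -0.34 ± 0.11 (SE), edgeR adjusted p = 0.0653). Of 24 ribosome biogenesis genes, a list that included Myc, 5 fell. Myc measured 169, 152, 196, 186 and 182 CPM in control tumors and 119, 95.7, 146, 122 and 98 CPM in responders (log2 fold change -0.61 ± 0.12 (SE), edgeR adjusted p = 0.00563), and non-responders had 113 to 155 CPM. The nucleolar genes Rrs1, Nop58, Nop56 and Wdr43 fell by 0.50, 0.50, 0.38 and 0.31. In the biogenesis list 3 passed without 20R or 30R, and in the stress response list 2 passed without 17R, 20R or 24L and 3 without 16R or 35L.

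Targets of p53, glucocorticoid receptor and TGF-beta were divided. Their counts stand beside 7.88% higher and 5.3% lower among all genes tested. Sesn1, Trp53inp1, Fas and Phlda3 rose by 0.61, 0.69, 0.83 and 0.31, and Mdm2 and Tnfrsf10b fell by 0.45 and 0.47, out of 16 p53 targets. Of 15 glucocorticoid targets Zbtb16 (1.74) and Fkbp5 (0.73) rose while Sgk1 (-0.80) and Errfi1 (-0.54) fell. Of 18 TGF-beta genes Id1 (0.45) rose, a smaller share than among all genes tested, and Skil (-0.51), Ccn1 (-0.58) and Smad7 (-0.42) fell. Among 219 solute carriers 18 rose and 8 fell, 26 of 219 in all against 13.2% of genes tested, the smallest p among the increases being those of Slc27a4, a fatty acid transporter (0.59), Slc28a2, a nucleoside transporter (1.10), and Slc11a1, the phagosomal metal transporter (0.94). Without 20R 11 solute carriers were higher, and without 33R 33 were. The number lower was 2 without 20R or 30R, 3 without 24L, 4 without 17R and 5 without 14L or 35L. Of the TGF-beta genes 1 was lower without 16R, 17R, 24L, 26R or 30R and 5 without 33R.

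Some broad programs gave no call at all in edgeR's test. None of 28 cell cycle genes, 24 hypoxia and glycolysis genes, 22 cholesterol synthesis genes, 16 endoplasmic reticulum folding genes and 13 mitochondrially encoded protein genes passed. Their median log2 fold changes were -0.08, -0.04, 0.11, 0.03 and 0.17. The mean log2 CPM of the cell cycle list lay between 6.74 and 7.03 in control tumors and between 6.77 and 6.86 in responders, so the responders lay within the control range. On TPM values the medians of the cell cycle and hypoxia lists turned positive, at 0.06 and 0.09, beside a shift of 0.09 in all genes. Of the 144 genes in the lists without a call, muscle, epidermis and mast cell genes included, 11 had an unadjusted p under 0.05, limma-voom called none and DESeq2 called 1, a cell cycle gene.

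Cytosolic ribosomal protein genes were lower together. Of 81 tested, 24 fell and none rose, 5.3% of all genes tested being lower. Of the 81, 53 did not overlap between the groups, against 15.1% of all genes tested. The median log2 fold change was -0.38, against 0.15 for non-responders against the same control tumors. The mean log2 CPM of the list lay between 9.29 and 9.65 in control tumors and between 8.98 and 9.19 in responders. In non-responders 29L, 32R, 33L and 33R it was 9.37, 9.48, 9.31 and 10.1. Only 33R lay above the control range, and the others lay within it. Rps28 measured 353, 415, 373, 400.3 and 384 CPM in control tumors and 274, 269, 282, 242 and 269 CPM in responders (log2 fold change -0.53 ± 0.10 (SE), edgeR adjusted p = 0.00491). Rps29, Rpl7, Rps4x, Rpl37a, Rpl4, Rps27, Rps6 and Rpl38 fell by 0.52, 0.53, 0.52, 0.70, 0.34, 0.48, 0.36 and 0.43 on the log2 scale. The number passing depended on single tumors. It was 7 without control tumor 20R, 8 without responder 24L or 30R, 10 without 14R, 12 without 16R or 26R, 13 without 35L, 14 without 17R and 69 without non-responder 33R, and it was 21 on TPM values. These genes have many processed pseudogenes that can take their reads, and 10 of 62 tested ribosomal protein pseudogenes were lower too.

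Many genes of the translation apparatus begin with a C followed by a run of C or T, the terminal oligopyrimidine tract, through which mTOR controls their translation. The 28 bases around the start are shown for 3 ribosomal protein genes and for Gas5, a non-coding snoRNA host gene of the same start type. Only genes with such a start were shown. Capitals mark the run of C or T from the first transcribed base (RefSeq, GRCm38.p6).
Rps27 (chr3:90213631-90213658, - strand): cgctttcgctCCTTTCCggcggtgacga
Rps6 (chr4:86857350-86857377, - strand): gaagtcgggcCTCTTTTTCgtgacgcct
Rpl38 (chr11:114668570-114668597, + strand): aagcctcgttCTTTCCCCgttctcttcg
Gas5 (chr1:161035156-161035183, + strand): ccatctcagcCTTTCggagctgtgcggc
A C followed by 4 bases of C or T exactly at the annotated start was present in 13 of 59 ribosomal protein genes with a window (22%). It was present in 5.89% of genes called lower, in 2.99% of genes called higher and in 3.05% of genes tested. Among the Snhg genes, Gas5 and Zfas1, 2 of 12 with a window had it (16.7%). The match hangs on the exact annotated base, and Gas5 has 2 annotated starts of which the second matched. Picked on sight of their values, the elongation factor genes Eef1g and Eef1b2 fell by 0.75 and 0.73, the ribosome-associated scaffold gene Rack1 by 0.62, and the snoRNA hosts Gas5, Zfas1 and Snhg1 by 0.71, 0.89 and 1.02. Of all 66 tested Eef1, Eef2 and Eif genes 7 fell and none rose (median log2 fold change -0.13), and of 11 Snhg genes 4 fell and none rose (median -0.33). The share called lower of all genes tested was 5.3%. Snhg1 measured 64.5, 76.1, 68.8, 64.3 and 67.3 CPM in control tumors, 31.2, 38, 39.8, 25.5 and 33.6 CPM in responders and 58.1, 62.9, 65.3 and 112 CPM in non-responders, and the responders lay below all others.

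Few genes of mitochondrial translation and respiration were called, and the shares lower did not exceed the 5.3% of all genes tested. Both lists leaned lower by small amounts all the same. The log2 fold change was negative for 72 of 78 mitochondrial ribosomal proteins and 70 of 75 nuclear oxidative phosphorylation genes. The medians were -0.17 and -0.18, against -0.01 over all genes tested. Shorter transcripts leaned lower in general, with a median of -0.14 under 1000 bases and -0.05 at 1000 to 2000 bases. These lists were not compared with genes of matched length. With a trend on gene length removed 10 mitochondrial ribosomal proteins were called lower. Of 78 mitochondrial ribosomal proteins 4 fell, Mrps9, Mrpl30, Mrpl9 and Mrps18a, by 0.53, 0.50, 0.38 and 0.31, and Mrps2 rose by 0.23. Of 75 nuclear oxidative phosphorylation genes the complex I genes Ndufa10 and Ndufs1 fell by 0.42 and 0.45. Psmd1 (-0.23) was the one of 33 proteasome genes to pass. Of the genes just given, Mrps9, Mrpl30, Ndufa10, Ndufs1 and Psmd1 lie on the first 100 Mb of chromosome 1, as do Rpl7, Rpl37a, Nop58 and Eef1b2. Without 14R, 20R, 24L or 30R 2 mitochondrial ribosomal proteins were lower, and without 33R 15 were.

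Genes on the first 100 Mb of chromosome 1 were lower as a group, a pattern noticed after the values were seen. Of the 482 genes tested there 108 fell (22.4%) and 20 rose (4.15%), against 4.69% lower and 8% higher on the other chromosomes, and the median log2 fold change was -0.17. Among the 300 with a mean log2 CPM of at least 3, 100 fell and 9 rose, with a median of -0.26. The median deviation from the control mean, on the log2 scale, was -0.26 in 24L, -0.20 in 26R, -0.24 in 30L, -0.29 in 30R and -0.20 in 35L, and lay between -0.05 and 0.07 in control tumors and between -0.10 and 0.01 in non-responders. All 5 responders lay below all 9 other tumors. Beyond 100 Mb of the same chromosome 29 of 313 such genes rose and 29 fell, with a median of -0.01.

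Of 242 segments of 10 Mb across the genome with at least 10 such genes, 29 had all responders below all control tumors in the median and 4 had all above. The 7 lowest segments of the 242 lay on chromosome 1, and 8 of the 10 segments in its first 100 Mb had all responders below. The segment from 20 to 30 Mb was an exception, with a median of 0.05. The highest median, 0.20 over 24 genes of which 7 were called higher, was that of the first 10 Mb of the X chromosome, where Cybb lies. Members of the chromosome 1 stretch include Stau2 (chr1:16228674-16520112), Rrs1 (chr1:9545408-9547455) and Ptprn (chr1:75247027-75264502), a secretory granule phosphatase-like protein, which measured 159, 154, 182, 163 and 181 CPM in control tumors and 84.3, 106, 100.5, 94.8 and 97.6 CPM in responders (log2 fold change -0.79 ± 0.10 (SE), edgeR adjusted p = 0.000633). Xrcc5, the Ku80 subunit of DNA repair, fell by 0.67, Bend6 by 0.97 and the chromatin reader Ing5 by 0.44. The number of genes called lower there was 108 with all tumors, 68 without control tumor 20R, 72 without responder 24L, 56 without 14R and 24L together and 43 on TPM values, and the 20 called higher became 8 without 20R or 24L, 10 without 30R, 13 without 16R or 17R and 33 without 33R. DNA copy number was not measured, and its part in the pattern was not tested.

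**Figure D3:**
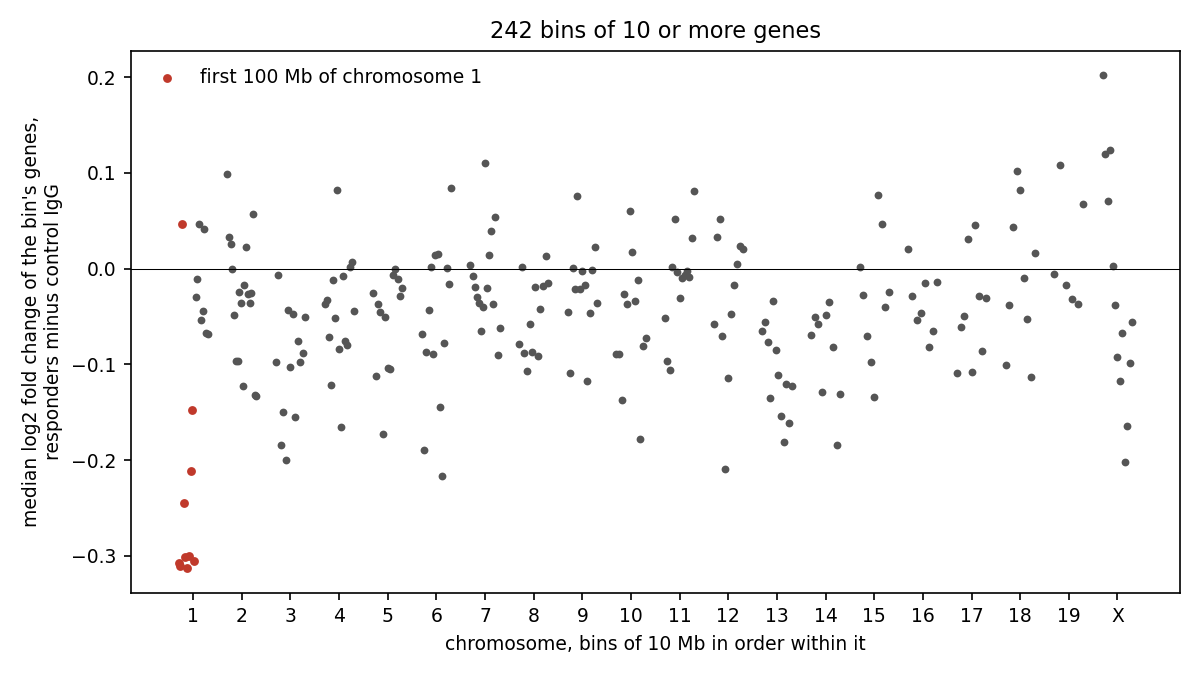
The median log2 fold change (responder minus control) of genes with a mean log2 CPM of at least 3 in each of 242 segments of 10 Mb, one point per segment in order within each chromosome, with the first 100 Mb of chromosome 1 in red. The first 100 Mb of chromosome 1 holds the 7 lowest segments.

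A few transcripts were present in control tumors and nearly missing in responders. The long intergenic RNA 1700048O20Rik (chr9:121937223-121947016) measured 16.4, 14.3, 9.41, 8.1 and 11.7 CPM in control tumors and 0.717, 1.81, 0.898, 0.397 and 0.262 CPM in responders (log2 fold change -3.91 ± 0.49 (SE), edgeR adjusted p = 0.000541), the largest decrease among the abundant genes. Non-responders had 3.84, 12.8, 13.1 and 17.3 CPM, with 29L below the other 3. Others of this pattern were chosen on sight of their values and are given without folds, since some responders had no read. Hmgb1-ps8 (chr10:22262742-22263367), a pseudogene, measured 3.21, 1.52, 2.02, 1.81 and 2.65 CPM in control tumors, 0, 0.146, 0.185, 0 and 0 CPM in responders and 0.399, 2.22, 3.03 and 1.27 CPM in non-responders. Gm26740 (chr10:22187013-22302835), whose span contains Hmgb1-ps8, measured 2.02, 1.11, 1.42, 1.16 and 1.62, 0, 0.175, 0, 0.0199 and 0.0218 and 0.324, 1.02, 2.24 and 0.887 CPM in the same order of groups. Gm3486 (chr14:41484232-41489485) measured 1.87, 2.58, 0.604, 0.627 and 0.754, 0, 0, 0, 0.0199 and 0 and 0.0997, 0.208, 1.13 and 0.919 CPM. In each of them 29L was the lowest non-responder. Vmn1r139 (chr7:22069057-22097907), a vomeronasal receptor gene, measured 0.297 to 0.769 CPM in control tumors and 0 to 0.0528 CPM in responders. Gm3486 and Vmn1r139 belong to families of close copies and Hmgb1-ps8 is a copy of a coding gene, so their assignment is uncertain. Gm45234 was at 0, 0.384, 0.473, 0.434 and 0.526 CPM in control tumors, its control tumor 14L thus overlapping the responders, none of which had a read.

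By biotype, 1203 of 14275 protein-coding genes (8.43%) were higher and 782 (5.48%) lower. Decreases outnumbered increases among processed pseudogenes, with 5 of 529 higher and 31 lower, and among processed transcripts, with 10 of 220 higher and 17 lower. Of 401 long intergenic RNAs 17 were higher and 19 lower. Genes whose transcripts were under 1000 bases had a median log2 fold change of -0.14 and those over 4000 bases one of 0.09. The library protocol does not say that strand was kept, so antisense and overlapping genes cannot be separated from their partners.

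The responders differed among themselves in the size of the change. Over the 1284 genes called higher, the median log2 difference from the control mean was 0.99 in 24L, 0.79 in 30R, 0.73 in 30L, 0.57 in 26R and 0.55 in 35L. Tumor 24L was the highest responder in 767 of the 1284 genes. Over the genes called lower the medians were -0.55 in 24L, -0.43 in 26R, -0.37 in 30L, -0.51 in 30R and -0.39 in 35L. Tumors 30L and 30R shared a mouse, as did control tumors 14L and 14R, and tumors of one mouse are not fully independent replicates.

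The treated tumors that did not respond gave a second reference. Between responders and non-responders 1612 genes (9.9%) passed the test, and between non-responders and control tumors none did. The first of these counts was 569 without 24L, 686 without 30R, 615 without 32R and 793 without 33R. Between non-responders and control tumors 758 of 16287 genes had an unadjusted p under 0.05 in edgeR, limma-voom called none and DESeq2 called 16. Both contrasts share samples with the one described here, so the values are set side by side. For Igkc the responders exceeded the non-responders by 3.27 ± 0.64 on the log2 scale, for Cxcl9 by 1.38 ± 0.30, for Ido1 by 2.38 ± 0.40 and for Cd274 by 0.87 ± 0.24, all past the test. For Lyz1, Gzma, Ccl6 and Fkbp5 the differences of 0.59 ± 0.21, 0.59 ± 0.26, 0.07 ± 0.22 and 0.29 ± 0.21 did not pass, and the non-responder means of 12.9 ± 3.93, 42.9 ± 16, 397 ± 115 and 393 ± 141 CPM (SD, n = 4) lay above the control means of 4.86 ± 0.455, 25.7 ± 4.93, 234 ± 59.5 and 292 ± 72 CPM (SD, n = 5). Among genes that fell, Lif, Sgk1, Csf1 and Cx3cr1 differed from non-responders by -0.15 ± 0.13, -0.14 ± 0.21, -0.06 ± 0.10 and -0.24 ± 0.31, none of which passed.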

How the data were processed

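RNA of 14 whole tumors was enriched with oligo(dT) beads and sequenced as paired reads of 150 bases, per the labels and the methods of the study. The submitters' processing notes name STAR, RSEM and mm10, with versions not given in the sources used here. The deposited tables give, per gene and tumor, expected counts estimated by RSEM from the authors' alignments, which can be fractional, together with TPM values, which the authors' run normalized for length and to the same sum in every tumor. Deposited transcript lengths and effective lengths gave the estimated mean fragment length (length minus effective length plus 1, median over 26344 genes), and FPKM columns were not used. No column of per-sample values was left without a sample.

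Expected counts were rounded to whole numbers. Of 53801 gene identifiers 53706 matched GENCODE vM21 (GRCm38). Genes were filtered with filterByExpr, scaled by TMM (factors 0.917 to 1.07) and tested with edgeR 4.0.16 in R 4.3.3 (glmQLFit and glmQLFTest, 3 groups, 14 tumors, Benjamini-Hochberg adjustment, called at 0.05). The biological coefficient of variation was 0.227. CPM values are TMM-scaled. The standard error of a log2 fold change is its size divided by the square root of F. On simulated data for 16082 genes the test recovered 69% of 200 changed genes with 4.83% false calls. Of the 50 genes changed 1.5 fold it recovered 38%. DESeq2 gave 20.3% false calls on the same simulated data. The simulated tumors were independent and only 200 genes changed, so these rates need not hold for the real tumors. The limit given for a count of 0 covers counting error only, while the standard errors also take in the spread between tumors. The study states DESeq2, which is given here as an alternative (DESeq2 1.42.0), as are limma-voom (limma 3.58.1), other scalings, filters and thresholds, TPM with limma-trend (pseudocounts 1 and 0.1), mice summed, each tumor left out and, chosen after seeing the data, 14R and 24L left out and skin and muscle covariates. Nothing in the labels says that tumors of a group were separate cultures beyond the mouse and flank, and p-values measure the spread between these tumors. The closest pair of tumors of a group differed by a chi-square of 23.3 per gene, so no library was counted as a duplicate.

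Genes named were the 15 per direction with the largest folds (adjusted p under 0.05, no overlap, mean log2 CPM of at least 1), the 10 per direction with the smallest p, up to 6 members of each of 49 lists, and genes singled out after their values were seen, which the text marks. Some genes that meet these rules are not reported here. The comparison, its lists and its gene groups were chosen with earlier results of these data known.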

Additional observations from a re-analysis of the deposited data

Results flagged for a closer look

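Single tumors that stood apart from the rest of their own group were sought with Dixon's test in groups of 4 or 5 tumors, over 873 groups of values (genes named above and list means). The test marked 35 (4%), and chance alone marks about 1 in 20 groups, so the number carries no weight of its own.

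Tumor 32R, a non-responder, was marked 7 times. It had 8.27 CPM of Retnla against 17.1 to 18.7 in the other non-responders, 0.95 CPM of Igkc against 3.17 to 3.79, 0.278 CPM of Jchain against 1.36 to 1.81, 0.0926 CPM of Pou2af1 against 0.224 to 0.255 and 17.8 CPM of Tnfrsf10b against 21.3 to 21.5. The immunoglobulin constant genes averaged -0.691 on the log2 CPM scale in it and the alternatively activated macrophage genes 3.23, each the lowest of the 4 non-responders.

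In the other non-responders, 33R had the highest CPM of Eef1b2 (2450.0), Rpl7 (2740.0) and Zfas1 (226.0) and the lowest of Nlrc5 (27.1). Tumor 33L had 688.0 CPM of Col1a1 and a collagen mean of 4.3 on the log2 CPM scale, the highest of its group, with the lowest Gzmk (0.368 CPM) and Pdcd1 (5.47 CPM). In 29L Itgae (2.17 CPM) and the glucocorticoid receptor targets (mean log2 CPM 6.56) were highest.

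Among responders, 24L had the highest CPM of Il18r1 (8.53) and Lck (27.7), the lowest of Ndufs1 (78.1) and the lowest proteasome mean (6.91 on the log2 CPM scale). The endothelial mean was highest in 30R (4.54). Plin4 was lowest in 26R (16.0 CPM), where Gm26740 was highest (0.175 CPM). In 35L Ap3b2 was highest (0.327 CPM) and Wdr31 lowest (0.48 CPM), and Gm3486 was seen in 30R alone of the responders (0.0199 CPM).

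Among control tumors, 14R had the highest skeletal muscle mean (6.18) and the lowest epidermis mean (-1.45) on the log2 CPM scale. In 20R Xrcc5 was highest (65.1 CPM) and Csf1 (177.0 CPM) and Itgae (1.55 CPM) lowest. Plaur was lowest in 14L (161.0 CPM), where Gm45234 had no read (0 CPM), and Il7 was lowest in 16R (7.04 CPM).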

How the results depend on the processing

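The tables allow expression differences to be seen down to the limits set by depth and by 5 tumors a group. No paired analysis was possible because both tumors of a mouse belong to the same group and no replicate number links a responder to a control tumor. Against 2147 genes called, 1284 higher, 863 lower and 1612 between responders and non-responders, the alternatives gave the following. DESeq2 called 3001, with 1332 lower and 2559 against non-responders. Summing the tumors of a mouse gave 2856 with 1331 lower, mouse as a random effect in limma-voom 2974 with 2973 against non-responders (consensus correlation -0.282), and removing a trend on gene length 2999 with 1390 lower. With a negative correlation the random effect did not widen the errors for tumors of one mouse. Without it limma-voom called 2226, and 1491 against non-responders. With only the compared groups in the fit there were 3043 calls, 1327 lower and 689 against non-responders. No filter left 569 lower. An adjusted p under 0.01 left 766 calls, 510 higher, 256 lower and 151 against non-responders, and adding an absolute log2 fold change over 1 left 517, 400, 117 and 352. On TPM 1827 were called with a pseudocount of 1 and 1725 with 0.1, of which 305 and 299 were lower, and 5 of the genes called on counts changed sign. The median of all genes was 0.09 and 0.12 there, and 82.7% of the calls were higher with 0.1. Scaling by library totals alone gave 1549 higher and 626 lower, 71.2% higher, with a median of all genes of 0.04.

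Leaving out one tumor at a time gave 1190 to 3385 calls, 748 to 1847 higher, 439 to 1538 lower and 569 to 1978 against non-responders. The lowest counts came without 20R (1190 in all, 439 lower) or without 24L (748 higher, 569 against non-responders), and the highest without 33R or, against non-responders, without 29L. Without 17R 572 were lower, without 30R 497 were lower and 686 passed against non-responders, and without 32R and 33R 615 and 793 passed against non-responders. With 14R and 24L both left out there were 1058 calls, 686 higher, 372 lower and 614 against non-responders. Skin and muscle covariates gave 2817 calls and 2510 against non-responders. The cause of these movements was not tested.

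The difference in total counts ranged from -2302250 to 1416740 when one tumor was left out and changed sign without 14R (1251430), 20R (286275), 26R (1416740) or 30L (254374), and the fragment length difference from 0.462 to 2.702 bases. Of 7416 values of the 240 named genes under alternatives, 6670 kept their direction and side of the threshold, 713 lost the call, 33 gained one and 0 changed sign. The median of the skeletal muscle list became 0.51 without 14R.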
